A study of Mus musculus with 15 samples.

Results

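Glutathione S-transferases (GSTs) are described here across cultures and tumors of a mouse pancreatic ductal adenocarcinoma (PDAC) line. The 10 genes Gsta4, Gstm1, Gstm5, Gsto1, Gstp1, Gstt1, Gstt2, Mgst1, Mgst3 and Gstk1 were chosen by name out of the 55291 genes in each table, and their response to DON and to Gln withdrawal was known when they were chosen. Their changes in those 2 culture comparisons are therefore given as values with no test. RNA-seq was done on 15 libraries in 5 groups of 3. The cells, HY19636, are 1 primary line that was grown out of a tumor of a C57BL/6 mouse with 1 floxed p53 allele (p53 L/+) and Ptf1a Cre, whose promoter is active in pancreatic cells. All 9 cultures came from this line and were kept in DMEM with 10% FBS: 3 control cultures, 3 cultures given 25 µM DON for 24 h, and 3 cultures grown for 24 h in medium lacking Gln (no Gln). The other 6 libraries are bulk tumors that formed after HY19636 cells were placed in the pancreas of female C57BL/6J mice of 8 to 10 weeks. Of these mice, 3 received vehicle and 3 received DRP-104 at 3 mg per kg by daily intraperitoneal injection, in 2 cycles of 5 days of drug and 2 days of rest, and tumors were taken 21 days after transplantation. The HY19636 cells of all 5 groups thus share the genotype of 1 line, while the tumors also hold cells of the C57BL/6J hosts.

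DON is a Gln analog that blocks many Gln-using enzymes, and DRP-104 is a prodrug of it. Gln is a source of Glu, which cells join with cysteine and glycine to make glutathione. GSTs attach glutathione to reactive electrophiles such as lipid aldehydes and oxidized drugs, and the conjugates leave the cell through transporters of the ABCC family. The cytosolic enzymes fall into classes named alpha (Gsta), mu (Gstm), omega (Gsto), pi (Gstp), theta (Gstt) and zeta (Gstz). The Mgst genes encode membrane-bound enzymes of a separate family, and Gstk1 encodes the kappa enzyme of mitochondria and peroxisomes. Many GST genes are known targets of NRF2, a transcription factor that responds to electrophiles and binds antioxidant response elements, and some respond to the aryl hydrocarbon receptor (AHR), which binds xenobiotic response elements.

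The start regions of these genes are shown because both factors bind short stretches of letters, which may lie close to the start or farther away. RefSeq windows from 250 bases before to 50 bases after the start were at hand for 8 of the 10 genes, in 10 windows of GRCm38.p6, and not for Gsta4 and Gstt2. Both strands were searched for TGACNNNGC, the core of an antioxidant response element, and for GCGTG, the core of a xenobiotic response element. TGACNNNGC was found in 2 windows, of Gstm5 and Mgst1, and is held by 12.4% of the 32851 windows of all genes. GCGTG was found in 5 windows of 4 genes, Gstm1, Gstm5, Gstp1 and Mgst3, and is held by 32.4% of all windows. The windows of Gsto1, Gstt1 and Gstk1 held neither. A match describes letters and is not a known site, and a window without a match says nothing of letters outside it. In the windows below, 5′ to 3′ on the strand of the gene, capitals mark the matches, which read CACGC or GCACGGTCA where they lie on the other strand. Gstm5 lies at chr3:107895604-107895903 on the plus strand, with CACGC 171 bases and TGACCACGC 42 bases before the start. The last 5 letters of the latter are also a GCGTG match. Mgst1 lies at chr6:138140277-138140576 on the plus strand, Gstm1 at chr3:108017769-108018068 on the minus strand and Mgst3 at chr1:167393792-167394091 on the minus strand.
Gstm5: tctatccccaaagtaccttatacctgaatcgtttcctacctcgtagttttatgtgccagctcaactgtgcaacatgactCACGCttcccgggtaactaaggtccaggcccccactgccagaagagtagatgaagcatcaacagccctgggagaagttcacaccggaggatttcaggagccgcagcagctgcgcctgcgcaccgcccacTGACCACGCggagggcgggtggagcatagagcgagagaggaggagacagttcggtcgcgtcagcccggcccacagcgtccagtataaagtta
Mgst1: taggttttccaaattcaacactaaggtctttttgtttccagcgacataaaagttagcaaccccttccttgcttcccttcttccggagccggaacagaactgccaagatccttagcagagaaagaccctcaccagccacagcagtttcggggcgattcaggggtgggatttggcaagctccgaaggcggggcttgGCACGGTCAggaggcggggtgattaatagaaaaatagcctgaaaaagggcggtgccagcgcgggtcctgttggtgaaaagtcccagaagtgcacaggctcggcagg
Gstm1: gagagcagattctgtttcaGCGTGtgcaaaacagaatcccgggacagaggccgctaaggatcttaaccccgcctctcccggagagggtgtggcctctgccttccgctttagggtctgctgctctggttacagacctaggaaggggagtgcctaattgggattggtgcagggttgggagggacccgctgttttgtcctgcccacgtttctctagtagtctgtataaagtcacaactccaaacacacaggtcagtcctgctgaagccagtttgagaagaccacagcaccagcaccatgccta
Mgst3: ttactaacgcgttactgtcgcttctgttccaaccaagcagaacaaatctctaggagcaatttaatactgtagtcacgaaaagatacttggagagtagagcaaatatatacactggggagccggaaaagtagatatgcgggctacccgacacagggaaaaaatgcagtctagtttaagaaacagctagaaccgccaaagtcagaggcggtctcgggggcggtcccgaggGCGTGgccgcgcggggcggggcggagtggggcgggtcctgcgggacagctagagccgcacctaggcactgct

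Depth was 25.2 to 48.2 M recovered reads in the cultures and 16.3 to 20.7 M in the tumors. Among genes with 1 to 20 reads, 69.6% to 72.7% of the counts were even in the cultures and 41.9% to 46.5% in the tumors, so that a low count in a culture may stand for fewer fragments than reads. Of the 6 ductal or carcinoma cell markers, all were found in all cultures. Their summed normalized count was 387215 to 496207 in the controls, 114949 to 123309 after DON and 160170 to 175701 without Gln, and their part in any result below was not tested. All 5 islet cell markers were at 0 in all 9 cultures. The same 3 control libraries serve both culture comparisons, with equal recovered reads for all 55291 genes, so the comparisons with control are not independent of each other. No source used here says that cultures of a group were grown separately, and p-values then measure only the spread between these libraries.

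Levels of different genes can be set side by side only per length, as reads per kilobase of gene per M reads in the library. In the control cultures on this scale Gsto1 led with 697 ± 42.8 (SD, n = 3), followed by Gstp1 with 361 ± 37.0, Gsta4 with 310 ± 31.1 and Mgst3 with 187 ± 16.8. The mu genes were lower, at 40.8 ± 5.49 for Gstm1 and 12.0 ± 1.88 for Gstm5, and Gstt1 stood at 4.58 ± 1.11. Mgst1 with 1.15 ± 0.0990, Gstk1 with 0.819 ± 0.0901 and Gstt2 with 0.812 ± 0.238 were near the floor of the scale. In this order the libraries of Gstp1 and Gsta4 overlapped, as did those of Gstk1 and Gstt2, while the other neighbors did not. The 10 genes together summed to 1615 ± 129 in control cultures, 683 ± 33.2 after DON and 671 ± 13.9 without Gln. Gsta4 made up 19.2% of that summed level in controls, 2.59% after DON and 2.81% without Gln. Mgst3 went from 11.6% to 4.41% and 6.33%, whereas the shares of Gsto1 (43.2%, 62.5% and 54.7%) and Gstp1 (22.3%, 27.3% and 35.2%) were larger in both treatments than in control. Most of the summed level of the 10 genes thus came from Gsto1 and Gstp1 in control cultures as well as in treated ones.

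**Figure D1:**
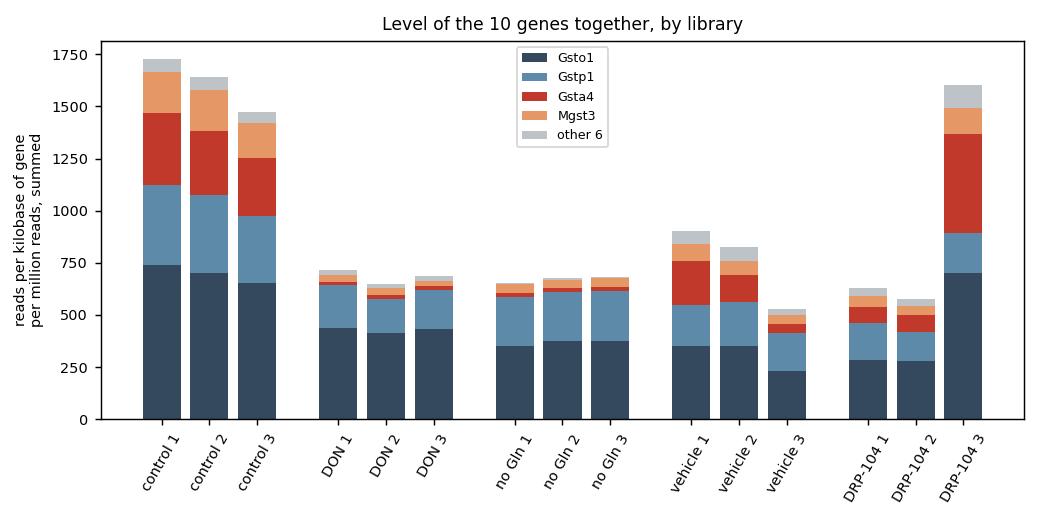
Stacked bars give, for each of the 15 libraries, the summed level of the 10 genes in reads per kilobase of gene per M reads, with colors for the leading genes. Control cultures reach 1474 to 1729, DON cultures 648 to 714 and no Gln cultures 655 to 682, while DRP-104 tumor 3 stands alone among the tumors at 1602.

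Gsta4 encodes the alpha-class enzyme with a preference for 4-hydroxynonenal, an aldehyde formed when membrane lipids are oxidized (ENSMUSG00000032348, GRCm38 chr9:78191966-78209348, plus strand). Its normalized count was 11204, 9902 and 8440.4 in the 3 controls against 499, 526 and 494 after DON. In the table of the Gln-free cells it was 10559, 9353 and 8140.2 in the same controls and 474, 498 and 611 without Gln. Every treated culture thus lay more than 10-fold under every control. On the log2(value + 1) scale the difference from control was -4.27 (SE 0.107) after DON, a 19.5-fold lower mean, and -4.15 (SE 0.118) without Gln, a 17.7-fold lower mean. Gsta4 ranked 87 from the lowest of 13556 genes tested after DON and 113 from the lowest of 13390 without Gln. It had the lowest log2 fold change of the 10 genes after DON in all 16 settings of the fit, but not without Gln.

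Without Gln the lowest of the 10 was Gstm1 in 15 of 16 settings and Mgst1 in the other. Gstm1 (ENSMUSG00000058135, chr3:108012255-108017973, minus strand) encodes a mu-class enzyme abundant in liver. It gave 1889, 1968 and 1394 normalized counts in controls and 271, 257 and 348 after DON. In the other table the controls gave 1780.1, 1859 and 1344 and the Gln-free cultures 66.8, 73.3 and 74.1. Both treatments were clear of the controls, and the Gln-free cultures were also clear of the DON cultures. The log2 fold change was -2.58 (SE 0.153) after DON and -4.51 (SE 0.149) without Gln, where the mean was 23.3-fold lower.

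Gstm5 (ENSMUSG00000004032, chr3:107895821-107898686, plus strand), a second mu gene on the same chromosome, behaved differently. Its normalized counts after DON were 436, 420.2 and 371, which overlapped the controls at 519, 382 and 394. Without Gln it had 145, 119 and 68.1 against 489, 361 and 379.6 in controls, with no overlap. The log2 fold change was -0.07 (SE 0.148) after DON and -1.93 (SE 0.244) without Gln. After quantile normalization, which moves the median of all genes after DON from 0.02 to 0.13 on the log2 scale, the DON value of Gstm5 was 0.09.

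Mgst3 (ENSMUSG00000026688, chr1:167371966-167393841, minus strand) encodes a membrane-bound transferase that also has peroxidase activity. The 3 controls had 7354, 7346 and 5750.2 normalized counts and the DON cultures 1072, 1003 and 897. Without Gln the counts were 1414, 1348 and 1321 against 6931, 6939 and 5546. These groups did not overlap, and the log2 fold changes were -2.78 (SE 0.112) and -2.24 (SE 0.0994), respectively. Mgst1 (ENSMUSG00000008540, chr6:138140316-138156755, plus strand), the microsomal enzyme of the same family, was scarce, at 42.8, 49.95 and 40.3 in controls and 14.3, 11.1 and 25.2 after DON. Without Gln it had 0, 2.06 and 6.01 against 40.3, 47.2 and 38.8, which is 8 reads in all 3 libraries together. Its log2 fold change was -1.42 (SE 0.388) after DON and -3.95 (SE 0.674) without Gln, and the latter read -2.69 with a pseudocount of 5.

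Gsto1 and Gstp1, the most abundant of the 10 per length in controls, were lower by less than Gsta4 in both treatments. Gsto1 (ENSMUSG00000025068, chr19:47854970-47864790, plus strand), whose omega-class enzyme has thioltransferase and dehydroascorbate reductase activity, had 29784, 28104 and 24164 normalized counts in controls and 15496, 14611 and 15211 after DON. Without Gln it had 12264, 13044 and 12759 against 28069, 26547 and 23304. Gstp1 (ENSMUSG00000060803, chr19:4035407-4037921, minus strand), the pi-class enzyme that is often abundant in carcinomas, had 9957, 9744 and 7539.6 in controls and 4713, 3789 and 4195 after DON. In the Gln-free comparison it had 5237, 5175 and 5261 against 9384, 9204 and 7271. All treated cultures were under all controls for both genes. The log2 fold change of Gsto1 was -0.85 (SE 0.0977) after DON and -1.03 (SE 0.0887) without Gln, and that of Gstp1 was -1.10 (SE 0.116) and -0.71 (SE 0.0994). Of the 50-base stretches of the Gstp1 transcripts, 33.7% are identical to Gstp2, so reads of the pair may have been split. For Gstm1 the share identical to any other gene was 18.9%, led by Gstm2-ps1, and for Gstm5 it was 9.44%. Gsta4, Gsto1, Gstt1, Mgst1, Mgst3 and Gstk1 shared no such stretch with another gene.

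The theta genes lie close together on chr10 and were low. Gstt1 (ENSMUSG00000001663, 75783813 to 75798584, minus strand), which acts on small halogenated compounds, had 143, 219.8 and 141 normalized counts in controls and 19.1, 11.1 and 13.4 after DON. It had 4.18, 18.6 and 16.02 without Gln against 135, 208 and 136, and the log2 fold changes were -3.44 (SE 0.310) and -3.71 (SE 0.448). All 6 treated cultures were below the controls. Gstt2 (ENSMUSG00000033318, 75831845 to 75834881, minus strand) had 50.3, 28.7 and 31.8 in controls and 0, 11.1 and 6.72 after DON, and 2.09, 2.06 and 8.01 without Gln against 47.4, 27.1 and 30.7. The treated groups rest on 20 and 12 reads, respectively, and their log2 fold changes were -3.02 (SE 0.775) and -2.99 (SE 0.563). The first was -1.93 without DON culture 1, which had no read, and the values were -2.06 and -2.18 with a pseudocount of 5. Gstk1 (ENSMUSG00000029864, chr6:42245935-42250441, plus strand) had 27.7, 27.5 and 20.8 in controls and 23.9, 22.2 and 25.2 after DON, which overlapped. Without Gln it had 6.27, 4.13 and 4 against 26.1, 25.95 and 20.05, which did not. The log2 fold change of Gstk1 was -0.08 (SE 0.363) after DON and -2.12 (SE 0.487) without Gln, the latter on 14 reads.

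Over the 10 genes the median log2 fold change was -1.996 after DON and -2.62 without Gln, beside 0.02 and 0.01 over all genes tested. Of all genes tested, 68.1% were called at an adjusted p under 0.05 after DON, 34.7% lower and 33.3% higher. Without Gln 69.4% were called, 34.9% lower and 34.5% higher. No call is drawn on for the 10 genes in either comparison. The groups did not overlap for 8 of the 10 after DON and for all 10 without Gln, which was so for 71.9% and 73.6% of all genes tested. Because the genes were chosen on these comparisons, these counts describe them and test nothing. All 10 passed the filter of a mean of 10, although Gstt2 after DON and Gstt2, Mgst1 and Gstk1 without Gln passed only because of the controls. The median over the genes with a mean of at least 10 in both groups was -1.42 for 9 genes after DON and -2.24 for 7 without Gln.

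**Figure D2:**
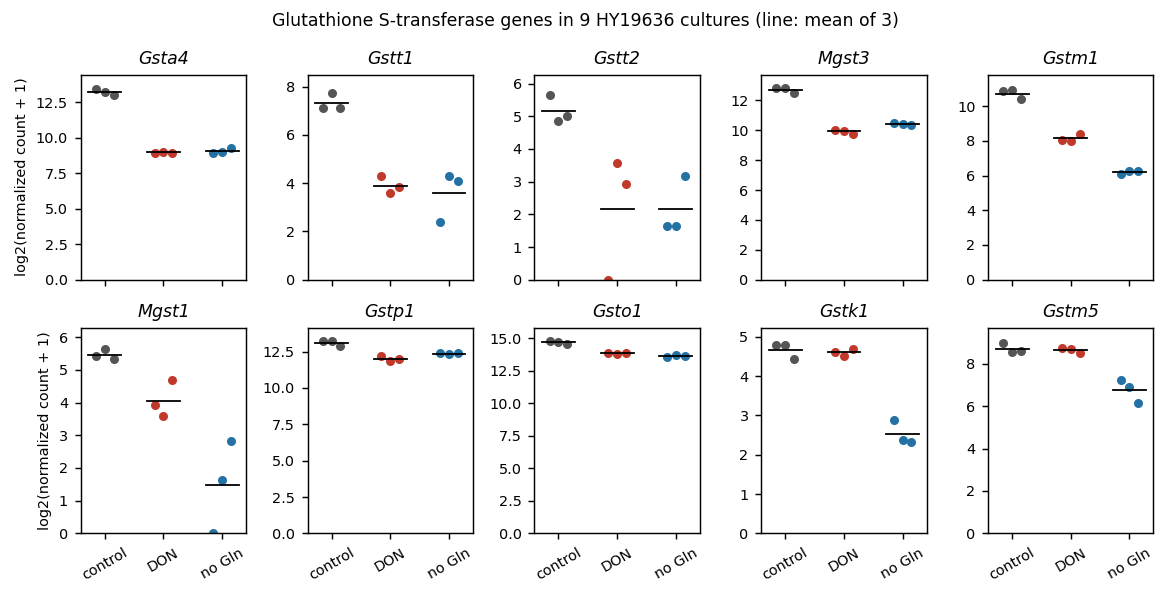
Each panel plots log2(normalized count + 1) of 1 gene in the 9 cultures, scaled together, with points for libraries and a line for the mean of 3. Gsta4, Gstt1, Gstt2 and Mgst3 drop in both treatments, while Gstm5 and Gstk1 are low without Gln and overlap the controls after DON.

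A direct comparison of DON with no Gln used the reads of all 9 cultures scaled together in 1 limma fit, in which 63.3% of 13514 genes were called, 32.3% lower and 31% higher after DON. It is a contrast between the treatments that did not choose the genes, although its libraries are those on which they were chosen. Of the 10 genes, 5 were higher after DON than without Gln, 2 were lower and 3 were not called, with no overlap for 7, beside 71.7% of all genes. Of these 10, Mgst1 and Gstk1, both among the 5, had a mean under 10 without Gln and passed the filter only through the other groups, and Gstt2 was under 10 in both treatments. Among the other 7 genes, 3 were higher, 2 were lower and 2 were not called. Gstm1 and Gstm5 were higher after DON by 3.97-fold and 3.59-fold. The log2 difference, DON minus no Gln, was 1.96 (SE 0.156, adjusted p = 3.92e-08) for Gstm1 and 1.90 (SE 0.222, adjusted p = 2.23e-06) for Gstm5. Mgst1 had 14.1, 10.9 and 24.8 normalized counts on the joint scale after DON and 0, 2.09 and 6.08 without Gln, which is 54 against 8 reads. Gstk1 had 23.4, 21.8 and 24.8 after DON and 6.34, 4.18 and 4.05 without Gln, which is 74 against 14 reads. Neither gene overlapped between the treatments, and no test is drawn on for them. Gsto1 was slightly higher after DON, by 0.21 (SE 0.0800, adjusted p = 0.0312), a call that was lost when either of 2 DON cultures or any of the 3 no Gln cultures was left out (adjusted p from 0.0533 to 0.109). Gstp1 and Mgst3 were lower after DON, by -0.35 (SE 0.101, adjusted p = 0.00690) and -0.50 (SE 0.1003, adjusted p = 0.000432).

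For Gsta4 no difference between the treatments was called. Gsta4 was singled out beforehand for its fall in both treatments in these same libraries, so its values here describe it and give no independent support. Its mean on the joint scale was 498 ± 18.2 after DON and 534 ± 73.8 without Gln, a log2 difference of -0.09 with a 95% interval of -0.33 to 0.15 (adjusted p = 0.494). Gstt1 had a difference of 0.30 (-0.67 to 1.27, adjusted p = 0.578). That interval is wide, and a 2-fold higher level after DON lies within it. Gstt2 had a difference of 0.02, on 20 reads after DON and 12 without Gln. It passed the filter only through the controls, and no test is drawn on for it.

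**Figure D3:**
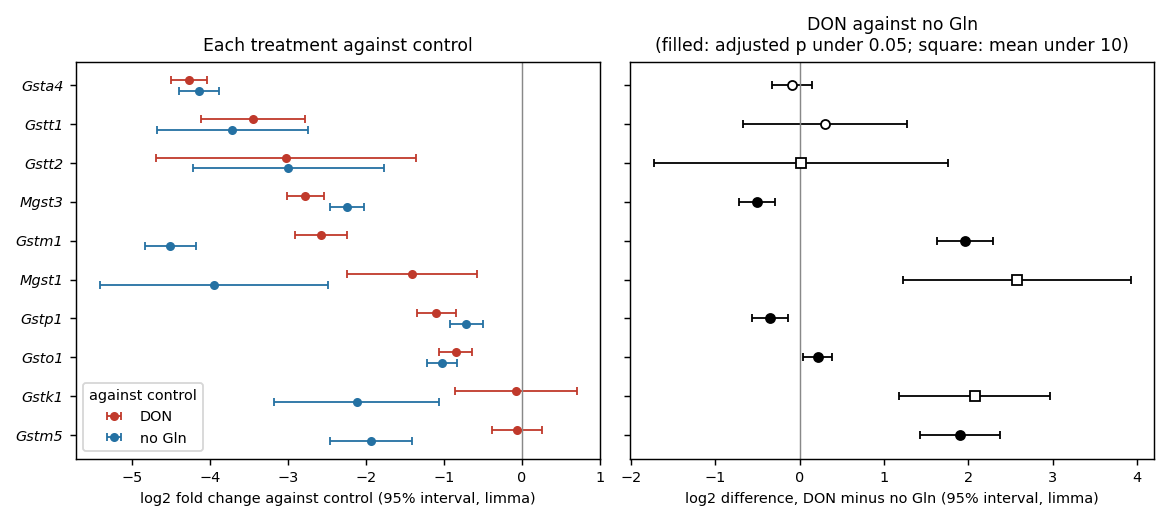
The left panel plots the log2 fold change of each of the 10 genes against control after DON and without Gln, and the right panel the log2 difference DON minus no Gln, with 95% intervals from limma, filled points for an adjusted p under 0.05 and open squares for the 3 genes with a mean under 10 in a treatment. Gsta4 is at -4.27 and -4.15 against control and at -0.09 in the direct comparison, in which Gstm1 lies at 1.96 and Gstm5 at 1.90.

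The genes whose pattern over the 9 cultures was most like that of Gsta4 were sought among 10431 genes with a mean of at least 100, by the root-mean-square difference of log2 values after subtracting the control mean. The nearest were Ucp2, a mitochondrial carrier (0.228), Aqp1, a water channel (0.230), Dhrs3, a retinal reductase (0.253), Pklr, a pyruvate kinase (0.286), and Crip1, a small LIM protein (0.337). Ucp2 had a mean of 3267 ± 477 in controls, 193 ± 14.6 after DON and 149 ± 16.3 without Gln. Aqp1 had 2733 ± 256, 179.8 ± 21.3 and 155 ± 17.1 in the same order. Each of these 5 genes was thus more than 10-fold under control in both treatments. Among the GST genes that passed this filter, Gstm1 was nearest at 1.01 and Mgst3 next at 1.40, and Gsto1, Gstp1 and Gstm5 lay at 2.67, 2.70 and 2.77.

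In tumors, no change of any of the 10 genes with DRP-104 was called. The comparison of 3 DRP-104 tumors with 3 vehicle tumors called 0 of 15454 genes in limma, with 775 at an unadjusted p under 0.05, and 0 in edgeR (863 at an unadjusted p under 0.05), while DESeq2 called 56. The lowest adjusted p of the 10 genes was 0.916, and DRP-104 and vehicle overlapped for all 10, where 10.6% of all genes did not overlap and 5.75% were lower in every DRP-104 tumor. Gsta4 had 1489.6, 1425 and 8297 normalized counts in DRP-104 tumors and 3639, 2327 and 762 in vehicle tumors. DRP-104 tumor 3 was above and the other 2 DRP-104 tumors were inside the range of vehicle. This gave a log2 fold change of 0.48 (SE 0.760, adjusted p = 0.941), with a 95% interval of -1.27 to 2.23 that does not reach the size of either culture difference. Gstm1 had 189, 225 and 1150.03 with DRP-104 against 747, 745 and 179, and a log2 fold change of -0.34 (SE 0.768, adjusted p = 0.969). A bulk tumor holds host cells as well, so fewer cells of a type and less RNA per cell cannot be told apart.

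DRP-104 tumor 3 was the highest of the 6 tumors for 6 of the 10 genes. Gsto1 had 14997 in it against 6604 and 6232 in the other DRP-104 tumors and 7432, 7907 and 5217 with vehicle. Mgst3 had 2438 in it, and 1142, 924, 1601, 1439 and 979.9 in the same order of the others. Gstt1 had 675 in it, against 126, 73.8, 193, 69.6 and 39.5. Without that tumor the median log2 fold change of the 10 genes was -0.17 rather than 0.36, 6 rather than 3 of the 10 were negative, and Gsta4 read -0.35 (adjusted p = 0.941) and Gstm1 -1.16 (adjusted p = 0.828). The sign of Gsta4 also turned without vehicle tumor 3, at -0.16 (adjusted p = 0.999). The median over all genes tested was -0.01. DRP-104 tumor 3 was also the highest for all 7 T cell markers, with a summed normalized count of 1306 against 41.5 to 98.3 in the other 5 tumors. It was the highest for 3 of 6 ductal or carcinoma cell markers, whose sum of 173678 was the highest of the 6 tumors, for 3 of 6 macrophage markers and for 3 of the 4 adipocyte markers found. Between the groups, ductal or carcinoma cell markers summed to 130197 to 173678 with DRP-104 and 116747 to 161328 with vehicle. Fibroblast markers, at 18469 to 32268 against 39031 to 82817, and endothelial cell markers, at 1122 to 1560 against 1800.03 to 2046, did not overlap. The part of these cell types in the values was not tested.

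The remaining genes were not called either. Gstp1 had 2686, 1991 and 2632 with DRP-104 against 2721, 3125 and 2567 (log2 fold change -0.21, adjusted p = 0.920). Gstm5 had 288, 225 and 364 against 193, 273 and 196 (0.39, adjusted p = 0.916). Mgst1 had 94.1, 83.1 and 89.2 with DRP-104 against 92.9, 403 and 88.6, so that vehicle tumor 2 stood apart (-0.75, adjusted p = 0.920). Vehicle tumor 2 was also the highest tumor for all 7 fibroblast markers and for 2 of 6 ductal or carcinoma cell markers. It was the highest for 2 of 5 endothelial cell, 1 of 6 macrophage and 1 of 4 adipocyte markers. The part of these cell types was not tested. Gstt2 was between 58.4 and 114 in all 6 tumors. Gstk1 was between 9.28 and 40.4, and was lowest in vehicle tumor 2 and highest in DRP-104 tumor 2 (0.73, adjusted p = 0.924).

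A further table gives tumor levels as FPKM for 3 DRP-104 and 3 vehicle columns that are not matched to the tumors above. There Gsta4 had 72.8, 64.7 and 77.2 FPKM with DRP-104 and 119, 267 and 102 with vehicle, so that every DRP-104 column was lower. The same was seen for Gsto1, at 255, 236 and 282 against 312, 508 and 298, and for Mgst3, at 35.0, 51.1 and 44.0 against 64.1, 101.6 and 63.9. Of all genes tested in this table, 19.3% did not overlap and 9.65% were lower in every DRP-104 column. None of these differences was called after adjustment, with a log2 fold change of -1.04 (SE 0.335, adjusted p = 0.611) for Gsta4, -0.49 (SE 0.214, adjusted p = 0.629) for Gsto1 and -0.79 (SE 0.222, adjusted p = 0.538) for Mgst3. Of 14183 genes 0 were called in limma, the one tool run on this table, and 1079 had an unadjusted p under 0.05. Vehicle column 2 was the highest for 7 of the 10 genes and for all 5 adipocyte markers, whose summed FPKM was 125 in it and 17.1 to 41.0 in the others. Without it the value of Gsta4 was -0.62 (adjusted p = 0.787) and the median of the 10 genes was -0.07 rather than -0.31. The T cell markers had summed FPKM of 1.48 to 4.59 with DRP-104 and 2.90 to 4.23 with vehicle. Islet cell markers did not overlap, at 312 to 1184 with DRP-104 and 13.4 to 227 with vehicle. Acinar cell markers summed to 602 to 3422 with DRP-104 and 163 to 930 with vehicle. Fibroblast markers summed to 1000.8 to 2958 and 739.5 to 1215, ductal or carcinoma cell markers to 2866 to 4195 and 3835 to 4298, and the part of these cell types in the values was not tested. Thus the direction for Gsta4, Gsto1 and Mgst3 differed between the tables, and in neither was a change called. Without DRP-104 tumor 3 the normalized counts gave -0.35 for Gsta4, -0.07 for Gsto1 and -0.35 for Mgst3, the sign of the FPKM values, and none was called. For Gstt1 (0.25), Gstt2 (0.31) and Mgst1 (-0.75) the sign without that tumor stayed opposite to FPKM, at -0.32, -0.29 and 0.26.

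**Figure D4:**
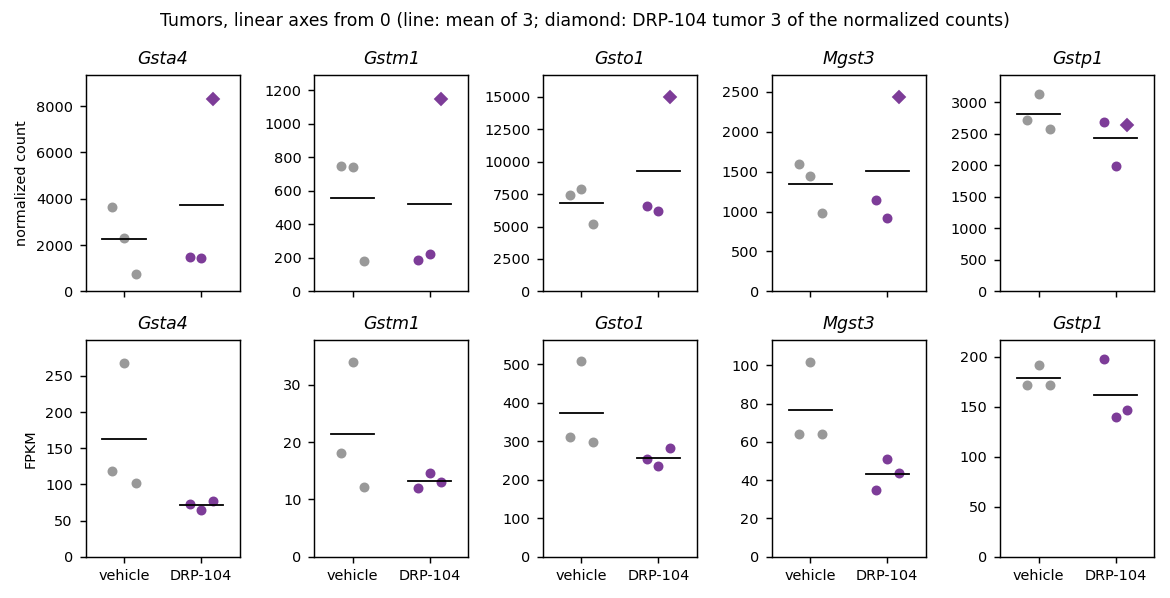
Panels plot Gsta4, Gstm1, Gsto1, Mgst3 and Gstp1 in vehicle and DRP-104 tumors, as normalized counts in the upper row and as FPKM in the lower row, on linear axes from 0 with a line for the mean of 3. In the upper row the diamond of DRP-104 tumor 3 stands far above the other tumors for Gsta4 at 8297, and in the lower row all 3 DRP-104 columns of Gsta4 lie under the vehicle columns.

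Of the other GST genes, 21 were listed and 12 were abundant enough to test in each culture comparison. This list too was chosen with earlier results of these data known, so its adjusted p-values describe the genes and are no independent support. After DON 2 rose, 6 fell and 4 were not called, with a median log2 fold change of -1.15. Without Gln none rose and 10 fell, with a median of -1.63. In each comparison 4 of the 12, all among those that fell, passed the filter only through the controls. Among the other 8 genes, 2 rose and 2 fell after DON (median 0.21), and 6 fell without Gln (median -0.68), beside 33.3% higher and 34.7% lower, and 34.5% higher and 34.9% lower, of all genes tested. Gsta1, an alpha-class enzyme, went from 567 ± 102 to 102.9 ± 6.82 normalized counts after DON (log2 fold change -2.44, adjusted p = 1.65e-08) and from 538 ± 93.3 to 96.5 ± 31.4 without Gln (-2.50, adjusted p = 4.59e-07). Mgst2, which can join glutathione to leukotrienes, fell by 1.61 and 1.31 on the log2 scale (adjusted p = 1.30e-07 and 1.66e-06). The next genes passed the filter only through the controls in at least 1 comparison, and their values are given without a test. Gstm2 had a mean of 74.3 in controls and 5.003 after DON, and 70.6 in controls and 6.16 without Gln. Ptges, a prostaglandin E synthase of the membrane-bound family, had 90.5, 45.0 and 54.6 in controls and 0, 0 and 1.68 after DON, and 0, 0 and 2 without Gln. Gstt3 was at 73.4 to 135 in controls, 1.19 to 2.52 after DON and 7.31 to 13.4 without Gln, in a table whose controls were 70.8 to 127. Gstp2 had a mean of 17.5 in controls and 5.23 after DON, and 16.6 and 3.73 in the other table. Of the Gsta1 transcripts 90.5% of 50-base stretches occur in other genes, and of Gstp2 54.3%.

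Gsto2 and Gstz1 moved in opposite directions in the 2 treatments. Gsto2, the second omega gene, rose after DON from 247.9 ± 15.4 to 412 ± 62.9 (0.72, adjusted p = 0.000764) and fell without Gln from 236 ± 15.1 to 162 ± 27.3 (-0.55, adjusted p = 0.0103). Gstz1, the zeta enzyme of tyrosine breakdown, rose after DON from 673 ± 74.7 to 1124 ± 65.7 (0.74, adjusted p = 5.84e-05) and fell without Gln from 639 ± 63.7 to 514 ± 26.5 (-0.31, adjusted p = 0.0312). In the direct comparison both were higher after DON than without Gln, by 1.31 (adjusted p = 3.63e-06) and 1.09 (adjusted p = 3.35e-07). The falls without Gln were not called after quantile normalization (adjusted p = 0.0595 and 0.0945), and that of Gstz1 was also lost when any of no Gln cultures 2 and 3 or control cultures 1 and 2 was left out. Gstm4 fell without Gln, by 0.82 (adjusted p = 0.0138), a call that was lost without control culture 1, and had 0.42 after DON (adjusted p = 0.110). In the direct comparison it was higher after DON by 1.27 (adjusted p = 0.000224). Gstm7 had a mean of 24.6 in controls and 3.42 without Gln, and 25.8 and 16.1 in the DON table. Gstcd and Hpgds were called in neither. In the tumors 0 of the 15 other GST genes tested were called, and 0 of 14 in the FPKM table.

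In the glutathione pathway around these enzymes, the counts of each list stand beside the shares of all genes tested. These were 33.3% higher and 34.7% lower after DON, and 34.5% higher and 34.9% lower without Gln, with medians of 0.02 and 0.01. Nothing particular to a list is read from the counts. The lists were chosen with earlier results of these data known. The genes named were picked as the 2 largest and the smallest called change of each list per comparison, with all called synthesis genes after DON. Their adjusted p-values come from the fit over all genes and describe them, with no independent support for the choice. Of 9 genes for glutathione synthesis and its amino acid supply, 5 rose and 4 fell after DON (median log2 fold change 0.24), and 3 rose and 2 fell without Gln (median 0.01). Cth, the enzyme that makes cysteine from cystathionine, rose by 3.05 after DON (adjusted p = 3.20e-11) and by 1.63 without Gln (adjusted p = 7.67e-08). Slc3a2, the shared chain of the cystine importer, rose by 1.83 after DON (adjusted p = 1.58e-09), and Slc1a5, a Gln transporter, rose by 0.24 (adjusted p = 0.0266). Without Gln, Cbs, which makes cystathionine, fell by 1.52 (adjusted p = 0.000328), and Gclm, the regulatory subunit of the first enzyme of glutathione synthesis, fell by 0.41 (adjusted p = 0.000714). After DON the 4 that fell were Cbs (log2 fold change -1.42), Gclc (-1.10), Gclm (-1.01) and Gss (-0.96). The 5 that rose were Cth, Slc3a2, Slc7a11, Slc1a4 and Slc1a5.

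Of 9 genes for glutathione reduction and NADPH supply, 8 fell and 1 rose after DON (median -1.57), and without Gln 7 fell and 1 rose (median -1.68). Idh1, the cytosolic NADPH-forming isocitrate dehydrogenase, went from 6898 ± 311 to 1384 ± 224 after DON (-2.33, adjusted p = 5.56e-10) and from 6557 ± 324 to 538 ± 102 without Gln (-3.62, adjusted p = 2.24e-10). Glrx, a glutaredoxin, fell by 2.67 after DON (adjusted p = 1.30e-07), and G6pdx, the entry enzyme of the pentose phosphate pathway, fell by 2.56 without Gln (adjusted p = 1.21e-09). Glrx2, a mitochondrial glutaredoxin, rose by 0.68 without Gln (adjusted p = 0.000129). The smallest change called after DON was that of Glrx5, at -0.24 (adjusted p = 0.0474).

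Of 4 glutathione peroxidase genes tested, 2 fell after DON, and 3 fell and 1 rose without Gln. Gpx8, a peroxidase of the endoplasmic reticulum, had opposite signs, falling by 1.36 after DON (adjusted p = 1.06e-05) and rising by 1.07 without Gln (adjusted p = 5.94e-06). In the direct comparison the difference, DON minus no Gln, was -2.40 (adjusted p = 2.89e-09). Gpx4, which reduces lipid peroxides in membranes, fell by 0.36 and 0.47 (adjusted p = 0.00978 and 0.00105), and Gpx3, the secreted peroxidase, passed the filter without Gln only through the controls, at 5.82 ± 1.23 against 32.3 ± 3.05. Among the other 3, 1 rose and 2 fell without Gln.

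Glutathione turnover held genes in both directions, with 2 higher and 4 lower of 9 after DON (median -0.39) and 3 higher and 5 lower without Gln (median -0.48). Chac1, which splits glutathione in the cytosol, rose by 2.54 after DON (adjusted p = 5.52e-10), from 637 ± 112 to 3681 ± 186. Ggct, a gamma-glutamyl cyclotransferase, fell by 0.49 (adjusted p = 0.0103). Ggt7 rose by 2.06 without Gln (adjusted p = 0.000758) and Cndp2, a dipeptidase, fell by 0.48 (adjusted p = 0.000605). Ggt6, 1 of the lower genes in both, passed the filter only through the controls, at 10.06, 54.95 and 12.3 there, 0, 1.85 and 3.36 after DON and 0 in all 3 cultures without Gln. Among the other 8 genes, 2 were higher and 3 lower after DON, and 3 higher and 4 lower without Gln, with a median of -0.15 in both.

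Transporters that carry glutathione conjugates out of the cell fell in 4 of 5 cases after DON, with 1 higher (median -0.998), and in 3 of 5 without Gln (median -0.25). Abcc3 fell by 3.41 after DON (adjusted p = 1.43e-06), and had 6.21 ± 4.22 without Gln against 117 ± 34.0, where it passed the filter only through the controls. Among the other 4, 2 fell without Gln and 2 were not called (median -0.21). Abcc4 fell more after DON, by 1.86 against 0.25 without Gln (adjusted p = 5.57e-10 and 0.0195), and the direct difference, DON minus no Gln, was -1.58 (adjusted p = 3.13e-10). Abcc5 fell by 0.49 and 1.66 (adjusted p = 0.000233 and 2.48e-09).

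Aldehyde and glyoxal detoxification genes, some of whose enzymes act on lipid aldehydes as Gsta4 does, were lower for 10 and higher for 1 of 13 after DON (median -0.36) and lower for 11 of 13 without Gln (median -0.78). Aldh3a1, an aldehyde dehydrogenase that oxidizes lipid aldehydes, went from 869 ± 108 to 80.3 ± 2.46 after DON and from 825 ± 96.5 to 61.9 ± 27.5 without Gln (-3.41 and -3.81, adjusted p = 2.37e-10 and 6.64e-08). Aldh1a1, a retinal dehydrogenase, fell by 3.27 without Gln (adjusted p = 5.65e-06), and had 9.53 ± 6.50 after DON against 123 ± 37.6, where it passed the filter only through the controls. Among the other 12, 9 were lower and 1 higher after DON (median -0.35). The smallest called changes were -0.32 for Esd after DON (adjusted p = 0.00570) and -0.23 for Akr1a1 without Gln (adjusted p = 0.0393).

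Of 13 genes for NRF2 and its known partners and targets, 4 were higher and 6 lower after DON (median -0.14) and 5 higher and 6 lower without Gln (median -0.46). Hmox1, the heme oxygenase that is a classic target, rose by 2.19 and 1.33 (adjusted p = 4.88e-10 and 3.21e-07). Nqo1, a quinone reductase and another target, had 26.4, 9.99 and 18.8 in controls and 0, 0 and 5.04 after DON, and passed the filter only through the controls. Among the other 12 genes, 4 were higher and 5 lower after DON (median 0.02). Without Gln Nqo1 was not called. Prdx1, a peroxiredoxin, fell by 0.30 after DON (adjusted p = 0.0105). Without Gln, Mafk, a DNA-binding partner of NRF2, rose by 1.68 (adjusted p = 5.52e-09) and Bach1, a repressor of NRF2 targets, by 0.38 (adjusted p = 0.0140).

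Of 6 genes in the xenobiotic receptor list, 1 rose and 2 fell after DON (median -0.38), whereas without Gln 4 rose and none fell (median 1.40). In the direct comparison 5 of 6 were lower after DON than without Gln, beside 32.3% of all genes tested. Cyp1a1, the best known target of AHR, rose without Gln from 23.4 ± 3.09 to 723 ± 89.7 (4.89, adjusted p = 5.02e-10), and was lower after DON than without Gln by -5.47 (adjusted p = 1.82e-10). Tiparp, an AHR target that limits the receptor, rose by 0.91 and 3.23 (adjusted p = 0.000540 and 1.42e-08). Cyp1b1 and Ahr itself fell after DON, by 1.09 and 0.81 (adjusted p = 0.000123 and 0.000117), and Arnt, the partner of AHR, rose by 0.43 without Gln (adjusted p = 0.000445). In the tumors no gene of any of these lists was called in either table.

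**Figure D5:**
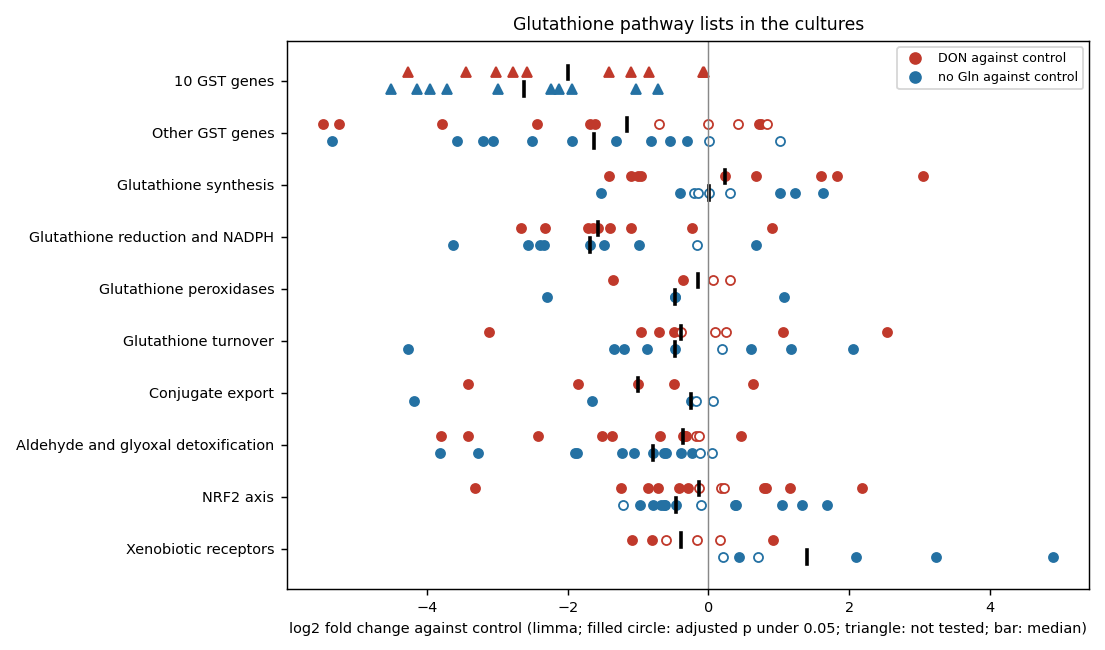
Each point is 1 gene of a glutathione pathway list, placed by its log2 fold change against control after DON or without Gln, with filled circles for an adjusted p under 0.05, triangles for the 10 GST genes, which were not tested here, and a bar for the median. The medians of the 10 GST genes lie at -1.996 and -2.62, and the xenobiotic receptor list has a median of -0.38 after DON and 1.40 without Gln.

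Small changes in these lists depended on scaling and on single cultures. After quantile normalization Esd, Ggct, Glrx5, Gpx4 and Prdx1 were no longer called after DON (adjusted p from 0.0676 to 0.281), nor was Akr1a1 without Gln (adjusted p = 0.398), and the peroxidase list then had 1 gene higher and 1 lower after DON. Slc1a5 and Prdx1 after DON, and Abcc4 and Bach1 without Gln, lost the call without at least 1 culture.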

How the data were processed

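RNA was extracted with TRIzol and a column kit, and per the methods Novogene made the libraries, aligned reads with HISAT2 and ran DESeq2. The submitters' processing notes also list STAR 2.5, CASAVA and GRCm39 with no role. The counting tool and the use of strand are not given in the sources used here. The authors deposited, for each comparison, a signal that equals the count of each gene over a size factor of its library. The authors' FPKM values, for tumors only, are scaled for gene length and library size. The start and end of 24873 of the 34411 genes found by ID in GENCODE vM21 are identical, so positions are GRCm38. Columns of the authors' fold changes and p-values were not used.

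Whole reads were recovered from the signal by its worth of 1 read, with at least 99.95% of values whole within 0.0051. The main test was limma 3.58.1 (lmFit, eBayes with trend, R 4.3.3) applied to log2(value + 1) in the libraries compared, after dropping genes with a mean under 10 (0.5 for FPKM), with Benjamini-Hochberg adjustment and a call at an adjusted p under 0.05. DON and no Gln were compared on recovered reads scaled together. The planned count alternatives were edgeR 4.0.16 and DESeq2 1.42.0 on recovered reads. The main limma fit, edgeR and DESeq2 were run on simulated counts, with far fewer changed genes than were called in the cultures. The FPKM fit, quantile normalization and the replicate block were not simulated, and no result above rests on the simulation. Levels per length used the gene lengths of the FPKM table. Named are the 10 genes, the other GST genes with a mean of at least 10, the 2 largest and the smallest called change of each pathway list per culture comparison, and the 5 genes most like Gsta4. The other glutathione synthesis genes called after DON are named as well. Igkv1-110 and Pyy were named after their values were seen. The 10 genes and all lists were chosen with earlier results of these data known. A further engineered allele of the line is not reported here.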

Additional observations from a re-analysis of the deposited data

How the results depend on the processing

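Over the culture settings, the log2 fold change against control changed sign for only 1 of the 10 genes. This was Gstm5 after DON, which ranged from -0.15 to 0.087. Genes called ranged from 8344 to 9660 after DON, from 8460.0 to 9683 without Gln and from 7773 to 9104 for DON against no Gln when 1 library was left out, and at an adjusted p under 0.01 they were 7706, 7916 and 7056. After DON, quantile normalization turned the split of 4520 higher and 4706 lower into 5321 and 4183. Of the 10 genes, 6 to 7 were called between DON and no Gln when 1 library was left out. Of all genes tested, the calls were then 7773 of 13521 to 9104 of 13506. With no filter 6 of the 10 were called, beside 8494 of 25574 genes. With a mean of at least 50, where fewer of the 10 were tested, 5 were called, beside 7823 of 11204 genes. Mgst1 and Gstk1, for which no test is drawn on, are in the counts of 6 to 7. Gsto1 lost its call with no filter (adjusted p = 0.0739). The difference of Gstt2 read -0.12 after quantile normalization and -0.17 with a pseudocount of 0.5, and with 1 library left out Gsta4 ranged from -0.16 to 0.018, Gstt1 from -0.30 to 0.66 and Gstt2 from -0.69 to 1.10. Neither Gsta4 nor Gstt1 was called in any setting.

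In tumors DESeq2 called 56 genes, and the cause was not tested. With 1 tumor left out, Gsta4 ranged from -0.35 to 0.97, Gstm1 from -1.16 to 0.13, Gsto1 from -0.072 to 0.56 and Mgst3 from -0.35 to 0.35. The FPKM table turned the sign of Gsta4 (-1.04), Gsto1 (-0.49), Gstt1 (-0.32), Gstt2 (-0.29), Mgst1 (0.26) and Mgst3 (-0.79), and the cause was not tested. Leaving out each FPKM column, chosen after seeing the data, called 0 to 1 genes: 1 without DRP-104 column 1 (Igkv1-110, adjusted p = 0.0472) and 1 without vehicle column 1 (Pyy, adjusted p = 0.0239). Gstt1 then ranged from -0.56 to 0.068, Mgst1 from -0.057 to 0.58 and Gstk1 from -0.14 to 0.21, and none of the 10 genes was called.

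Libraries with the same replicate number shared only the number, with deviations that correlated at -0.03 to 0.07 in cultures and -0.36 to 0.04 in tumors. With the replicate block, 9216 genes were called after DON, 9056 without Gln and 0 in tumors. Between DON and no Gln 8456 of 13514 genes were called, and 7 of the 10 genes. With the length of the longest transcript, 7 of 50 levels per length moved by more than their SD, among them Gstk1 in the 3 culture groups. Values of Gstt2, Mgst1 and Gstk1 in treated cultures rest on few reads, which limits them, and Mgst1 and Gstk1 count among the genes called between DON and no Gln although their mean without Gln was under 10.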
